A study of Mus musculus with 22 samples.

Results

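Chil1, Chil3, Chil4 and Chit1 encode the chitinase-like proteins and the chitotriosidase of the mouse. They were taken by gene symbol as 4 of the 20938 genes in an expression matrix of 22 mouse lungs, and the rule that picks them uses no measured value. All 4 were present, and 3 of them, Chil1, Chil3 and Chil4, were among the 15682 genes that reached 0.1 FPKM in 3 or more libraries and were tested. Chit1 did not pass and is given by its values.

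The study exposed BALB/c mice to 1 of 3 aerosols in 2 schedules, and total RNA of each lung was sequenced from stranded libraries. Per the treatment labels every mouse, controls included, got sensitizing and booster injections into the peritoneum at an age of 49 and 63 days, and aerosol challenge began at 70 days. The sensitizing agent is not named in the labels. The aerosols were phosphate-buffered saline (PBS), methacholine (MCh, a muscarinic agonist that narrows the airways) and ovalbumin (OVA, an egg-white protein used as a model allergen). In the short protocol they were given on 3 consecutive days, and in the long protocol 3 times a week for 4 weeks. Each protocol held 3 PBS, 4 MCh and 4 OVA libraries. Titles describe the PBS and MCh animals as normal although the treatment labels describe sensitization, and the title of short MCh gives 4 days where its treatment gives 3. The series design speaks of trachea, whereas the sample labels say lung. The 10 alveolar type 2 cell markers summed to 13135 FPKM or more in every library (FPKM is fragments per kilobase of transcript, scaled to library size).

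Chitinases and chitinase-like proteins belong to glycoside hydrolase family 18. Chit1 (chitotriosidase) and Chia1 (acidic mammalian chitinase) cut chitin, the polymer of fungal walls and arthropod shells. Chil1 (also called BRP-39, the mouse counterpart of human YKL-40), Chil3 (Ym1) and Chil4 (Ym2) keep the fold and bind sugars but lack the catalytic residues. Chil3 is widely used as a marker of alternatively activated macrophages, and the chitinase-like proteins are known as abundant products of the lung in type 2 inflammation, which the cytokines IL-4 and IL-13 drive through STAT6.

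The genes lie in 2 places (RefSeq positions on GRCm38.p6, the mm10 build). Chit1 (chr1:134111242-134151541) and Chil1 (chr1:134182156-134190031) are neighbours on chromosome 1, 30614 bases apart. Chil3 (chr3:106147554-106167564) and Chil4 (chr3:106201491-106219479) lie on the reverse strand of chromosome 3, with 33926 bases between them, in a stretch of 432400 bases that also holds Ovgp1, Chil5, Chia1 and Chil6. The promoters of Chil3 and Chil4 are shown because these near copies differed in expression, and that of Chil1 because it rose with them from another chromosome. Each run covers 250 bases before and 50 after the RefSeq start site, at chr3:106167515-106167814 (reverse strand) for Chil3, chr3:106219430-106219729 (reverse strand) for Chil4 and chr1:134181906-134182205 (forward strand) for Chil1. Capitals mark a STAT motif with 3 bases between its ends (TTCNNNGAA) and the TATA box (TATAAA); the Chil1 run holds neither.
Chil3: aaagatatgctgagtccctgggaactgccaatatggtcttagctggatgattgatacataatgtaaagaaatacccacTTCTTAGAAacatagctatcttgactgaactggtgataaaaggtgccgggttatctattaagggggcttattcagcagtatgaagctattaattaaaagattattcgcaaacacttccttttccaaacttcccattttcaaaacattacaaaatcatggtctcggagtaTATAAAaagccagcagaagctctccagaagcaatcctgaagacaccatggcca
Chil4: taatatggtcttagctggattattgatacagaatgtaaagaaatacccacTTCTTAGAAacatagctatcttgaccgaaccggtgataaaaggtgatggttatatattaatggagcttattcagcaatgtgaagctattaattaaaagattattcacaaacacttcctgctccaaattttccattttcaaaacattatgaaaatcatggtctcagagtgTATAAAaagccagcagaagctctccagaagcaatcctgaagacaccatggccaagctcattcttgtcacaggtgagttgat
Chil1: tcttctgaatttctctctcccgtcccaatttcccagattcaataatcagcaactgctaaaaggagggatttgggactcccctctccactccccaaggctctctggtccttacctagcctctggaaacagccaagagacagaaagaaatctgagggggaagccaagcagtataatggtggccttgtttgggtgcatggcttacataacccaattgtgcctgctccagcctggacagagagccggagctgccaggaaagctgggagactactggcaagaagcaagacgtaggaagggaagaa

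The Chil3 and Chil4 promoters were identical at 251 of 271 aligned bases (92.6%) once shifted by 28 bases. Both held the STAT motif and the TATA box, in the same order. Relative to the RefSeq start site, the STAT motif began at -172 in Chil3 and at -200 in Chil4, and the TATA box at -3 and -31. Both gaps equal the shift of 28 bases, so each motif falls at the same aligned place. Searched on both strands, the STAT motif with 3 spacer bases occurred in 8.30% of 32851 promoters of the same length and TATAAA in 13.6%. The form with 4 spacer bases (TTCNNNNGAA), the one known for STAT6, occurred in 6.95% of promoters and in none of the members' windows. The C/EBP motif (TTGCNNAA) was found in Chil4 at -131, against 10.8% of promoters, and the PU.1 motif (GAGGAA) in no member, against 28.3%. Neither the Chil1 nor the Chit1 window held any of these motifs. A match is a description of the letters in this window and no evidence of a bound site. The GENCODE transcripts of Chil3 and Chil4 are close as well, with 1454 of 1535 aligned bases identical (94.7%). Of the windows of 50 bases in the Chil3 transcript 18.5% recur exactly in Chil4, of 100 bases 3.75% and of 150 bases 0%. No window of 50 bases was shared between either of them and Chil1, Chit1 or Chia1. How reads that fit both copies were assigned is not given in the sources used here.

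Facts of the whole series that bear on these genes are few. From the steps of the FPKM values, 1 FPKM on 1 kilobase of transcript corresponds to between 15.2 and 25.8 fragments. Genes listed at 0 made up 22.5% to 25.3% of the table in 19 libraries, and 34.3%, 33.8% and 28.3% in long MCh libraries a and c and short MCh library 1. The OVA and PBS comparisons use none of these 3 libraries directly, but the libraries enter the estimate of spread that all groups share. The numbers of the long OVA and MCh libraries in the table do not match those in the sample titles, so these libraries are called a to d. Values below are FPKM, mean ± SD over libraries, or log2 fold changes ± SE on the scale log2(FPKM + 0.5), from limma with a Benjamini-Hochberg adjusted p over all 15682 genes. A gene is said to have risen, fallen or changed where that adjusted p is under 0.05. In bulk lung, more cells of a type and more RNA per cell cannot be told apart.

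After the short OVA protocol, the 3 tested genes were all far above PBS. They rose by 2.25 ± 0.18 (Chil1), 4.88 ± 0.36 (Chil3) and 9.29 ± 0.87 (Chil4), with 24.2% of all tested genes called in this comparison. Chil4, nearly silent in PBS lungs, reached 501 FPKM, and Chil3 reached 5834 FPKM. For each of these 3 genes every short OVA library lay above every short PBS library, as was the case for 23.2% of all tested genes. Chit1 stayed at or near 0.

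**Figure D1:**
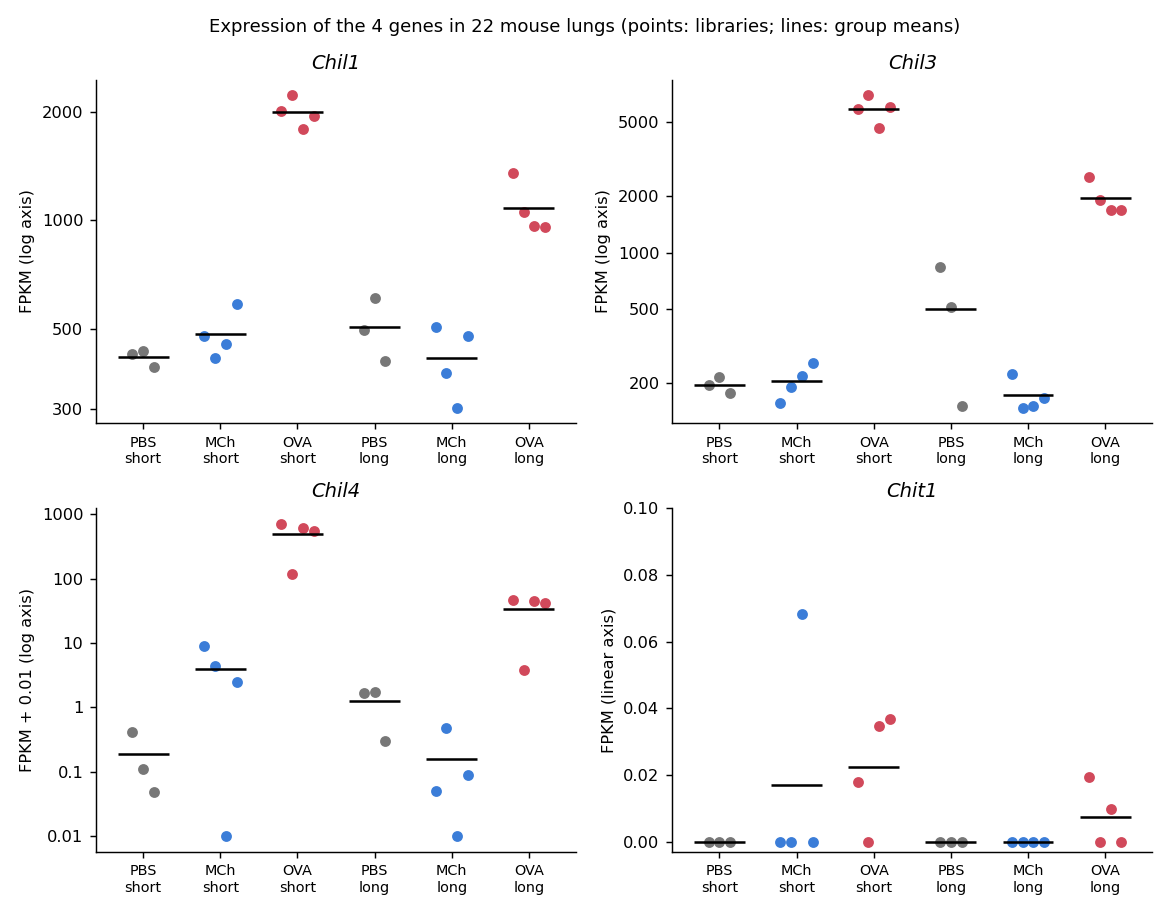
FPKM of Chil1, Chil3 and Chil4 (log axes, Chil4 after adding 0.01) and of Chit1 (linear axis) in each of 22 libraries by aerosol and protocol, with lines at group means. The OVA libraries lie above the PBS libraries for Chil1, Chil3 and Chil4, by more in the short than in the long protocol, while Chit1 does not exceed 0.0681 FPKM.

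Chil1 was already abundant in control lungs. The short PBS libraries stood at 426, 433 and 391 FPKM (416 ± 22.5, n = 3) and the short OVA libraries at 2012, 2219, 1785 and 1948 (1991 ± 179.7, n = 4). The groups lay far apart, and within either of them the libraries differed by at most 1.24-fold. The adjusted p was 2.68e-08. After the long protocol the PBS libraries stood at 497, 610.2 and 407 FPKM (505 ± 102) and the OVA libraries at 1355, 1057, 962 and 959 (1083 ± 187), a rise of 1.11 ± 0.18 (adjusted p = 0.00170). The groups again did not overlap. Long MCh library c held the lowest Chil1 level of all, at 302 FPKM, and it is 1 of the 3 libraries with many genes at 0.

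Chil3 moved over a wider range. The short PBS libraries held 196, 216 and 177 FPKM (196 ± 19.3) and the short OVA libraries 5836, 6914, 4617 and 5970.3 (5834 ± 943), with an adjusted p of 1.17e-08. Long OVA lungs held 2539.8, 1906, 1697 and 1682 FPKM (1956 ± 402) and rose above long PBS by 2.26 ± 0.36 (adjusted p = 0.00165). The long PBS libraries spread over 5.52-fold, at 839, 509 and 152 FPKM, while no other group spread by more than 1.63-fold. Libraries 1 and 2 of long PBS also stood above library 3 for Retnla, a secreted protein of type 2 inflammation, at 1430.0, 1647 and 224 FPKM, and for the goblet cell gene Clca1, at 67.4, 73.3 and 9.83. Alveolar macrophage markers summed to 391, 373 and 359 FPKM in the same 3 libraries. Their part in the spread of Chil3 was not tested.

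Chil4 went from close to absent to high. Short PBS libraries held 0.405, 0.0987 and 0.0379 FPKM (0.180 ± 0.196), which corresponds to between 1.42 and 16.7 fragments per library. Short OVA libraries held 712, 119.8, 618 and 554 FPKM (501 ± 262; adjusted p = 3.39e-07), or 4079 to 24478 fragments. Library 2 was set apart from the other 3, and still lay far above every PBS library. Because the control level is near 0, the size of this change depends on the added 0.5: it was 10.75 with 0.1 added. Long OVA libraries held 46.7, 3.74, 44.1 and 42.2 FPKM (34.2 ± 20.4) against 1.66, 1.74 and 0.288 in long PBS (1.23 ± 0.817). The groups did not overlap, and long OVA library b, at 3.74, lay nearest to PBS. The rise of 3.99 ± 0.87 passed (adjusted p = 0.0246) but rested on few libraries: it lost its call without any of PBS libraries 1, 2 and 3 or OVA libraries a, c and d (adjusted p = 0.0671 to 0.194), and was 4.84 (adjusted p = 0.00214) without OVA library b. It was also lost with 0.1 added (0.0937) and with no filter on low genes (0.0583).

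Chit1, the member with chitinase activity, was listed at 0 in 16 of 22 libraries. All 6 PBS libraries and all 4 long MCh libraries were at 0. Short OVA libraries held 0.0180, 0, 0.0348 and 0.0367 FPKM and long OVA libraries 0.0195, 0, 0.00995 and 0. The highest value, 0.0681, was in short MCh library 3. Only 1 of its 3 listed transcripts had any value above 0, with at most 3.93 fragments in a library. For a library at 0, a count of 0 still allows up to 3 fragments, or 0.0640 to 0.109 FPKM for that transcript depending on the library. Of the same transcript, short OVA libraries held at most 0.0521 FPKM and long OVA libraries 0.0277, below this limit. The OVA values are thus not set apart from the zeros at this depth. Short MCh library 3 held 0.0967 FPKM of it, or 3.93 fragments, above the limit of some libraries and below that of others. The limit covers counting error only. Fitted without the filter, the difference of Chit1 between short OVA and PBS was 0.06 ± 0.03 (adjusted p = 0.261).

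After long exposure, 3 of 3 tested members rose in OVA over PBS, where 1.18% of all tested genes were called, and every OVA library lay above every PBS library, as for 9.95% of all genes. The OVA effect itself was smaller than in the short protocol for each of them. The difference between the effects, tested as an interaction, was -1.15 ± 0.25 for Chil1 (adjusted p = 0.0187), -2.62 ± 0.51 for Chil3 (adjusted p = 0.00900) and -5.30 ± 1.24 for Chil4 (adjusted p = 0.0296), against 1.88% of genes called. Both arms entered this difference. OVA lungs were lower in the long than in the short protocol, at -0.89 ± 0.16, -1.58 ± 0.33 and -4.06 ± 0.81 (same order), each called where 27.7% of all genes were. Long PBS lungs stood above short PBS by 0.26 ± 0.19, 1.04 ± 0.38 and 1.24 ± 0.93, none of which passed (0.166% of all genes called).

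The interaction of Chil3 passed under all 27 alternatives run, from -3.32 to -2.09. Those of the other 2 did not. The Chil1 interaction lost its call without short PBS library 3 (adjusted p = 0.0697), long PBS library 1 (0.0526) or long PBS library 2 (0.0859) and with quantile normalization (-0.78, 0.0789). The Chil4 interaction lost it without short PBS libraries 1, 2 or 3, long PBS libraries 1 or 2, or short OVA libraries 1 or 4 (adjusted p = 0.0520 to 0.101). Without short PBS library 3, long PBS library 1 or long PBS library 2, the number of members called fell from 3 to 1, Chil3.

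**Figure D2:**
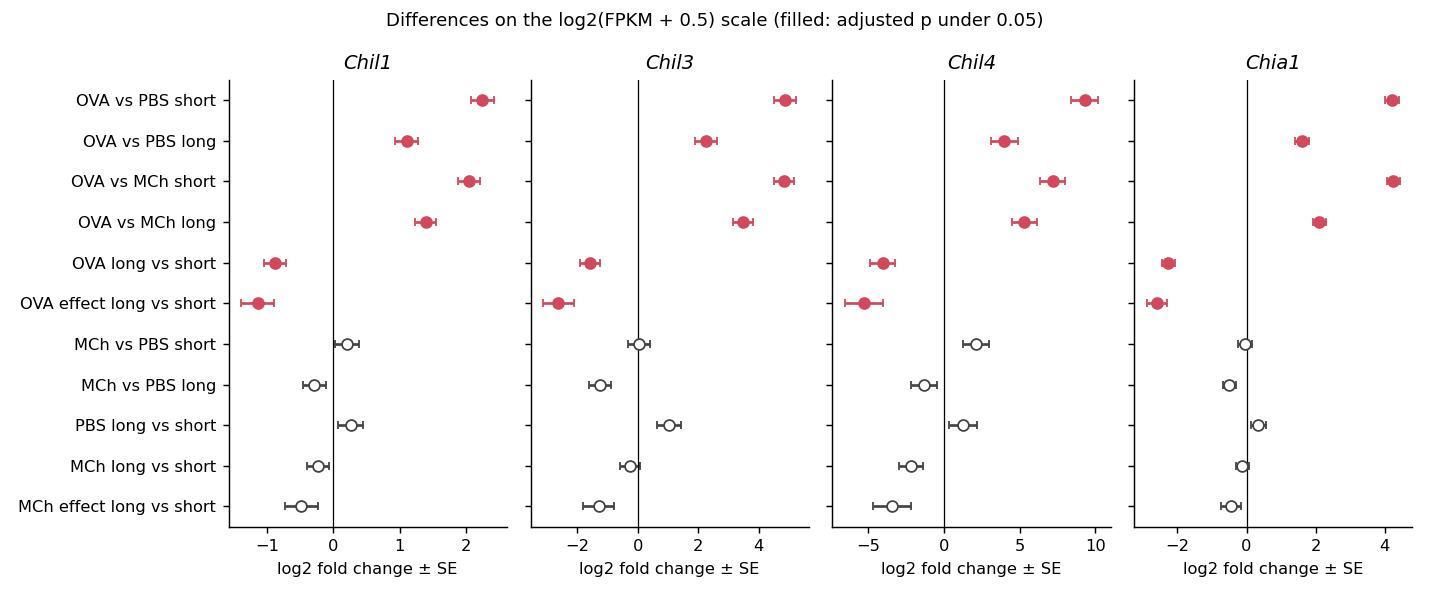
Log2 fold changes ± SE of Chil1, Chil3, Chil4 and the neighbouring chitinase Chia1 in 11 comparisons, each panel with its own axis; filled points passed at an adjusted p under 0.05. The 6 comparisons that involve OVA passed for all 4 genes and the 5 without OVA for none.

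MCh aerosol gave no call for any member. In the short protocol Chil1 stood at 0.20 ± 0.18, Chil3 at 0.05 ± 0.36 and Chil4 at 2.11 ± 0.87 (adjusted p = 0.639) relative to PBS, where 0.00638% of genes were called. The sign for Chil3 turned under several alternatives. The short MCh libraries held 477, 416, 453 and 586 FPKM of Chil1, within or above the PBS range, and 157, 192, 219 and 256 of Chil3. Library 4, the highest for both, had an array weight of 0.0834, under the limit of 0.25. Its alveolar type 2 markers summed to 24371 FPKM, against 14251 to 15528 in its group mates. Chil4 held 8.83, 4.31, 0 and 2.48 FPKM, so 3 MCh libraries lay above all 3 PBS libraries and 1 below. The library at 8.83 was 1 of those with many genes at 0 and held the highest goblet marker sum of its group, 474 FPKM against 41.3 to 116 in the other 3. Whether the goblet signal has a part in the Chil4 value was not tested.

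After the long MCh protocol Chil1 stood at -0.29 ± 0.18, Chil3 at -1.24 ± 0.36 (adjusted p = 0.215) and Chil4 at -1.32 ± 0.87, where 0.0638% of genes were called and the median of all genes was -0.14 (0.02 with quantile normalization). The Chil3 libraries held 224, 148, 152 and 167 FPKM, which overlaps the lowest long PBS library. That library decided the outcome: without long PBS library 3, Chil3 was called lower in MCh (-1.94, adjusted p = 6.59e-04), the MCh effect differed between protocols (-1.99, 0.0187) and long PBS was above short PBS (1.74, 0.00488). With all libraries the MCh effect differed between protocols for no member, and limma called 0 genes of 15682 (0%; 989 at an unadjusted p under 0.05). Long MCh held 0.0410, 0.467, 0 and 0.0801 FPKM of Chil4. The difference from short MCh was -2.20 ± 0.81 (adjusted p = 0.105; 3.23% of genes called), and it passed without short MCh library 3 (-3.03, 0.0241), the library at 0.

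Set against MCh in place of PBS, OVA gave the same calls in both protocols. In the short protocol the log2 differences were 2.05 ± 0.16 (Chil1), 4.83 ± 0.33 (Chil3) and 7.18 ± 0.81 (Chil4), with 15.2% of genes called. In the long protocol they were 1.39 ± 0.16, 3.50 ± 0.33 and 5.31 ± 0.81, with 6.06% called. For the long comparison quantile normalization moved the median of all genes from 0.14 to -0.04, and the members then stood at 1.48 (Chil1), 3.55 (Chil3) and 4.99 (Chil4), still called. With it the split of all calls moved from 745 higher and 206 lower to 452 and 447, and in the short comparison from 1469 and 912 to 1445 and 1462. Between the long and short MCh groups it moved from 198 and 309 to 407 and 349, and between the OVA groups median-of-ratios scaling moved it from 2470 and 1876 to 1971 and 2272; the members fell there under every scaling. The OVA groups are shared between these and the PBS comparisons.

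The order of the 6 group means was alike at the top for the 3 tested genes, short OVA and then long OVA. Short and long OVA did not overlap for any of them, in a comparison where 27.7% of all tested genes were called. The share of all genes without overlap there was not computed. For Chil1 and Chil3 the next group, long PBS, lay below long OVA without overlap, and the lower 4 groups overlapped with their neighbours. For Chil4 the next was short MCh, whose range overlapped that of long OVA through library b. None of the pairs among the PBS and MCh groups passed for any of the 3 genes.

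Levels of different genes can be compared only per length, and the transcript table serves for that because each of these genes but Chit1 has 1 listed transcript there. In short PBS lungs Chil1 came first at a mean of 379.5 FPKM, followed by Chil3 at 193 and Chil4 at 0.190. In short OVA lungs Chil3 averaged 5724 FPKM, Chil1 1814 and Chil4 527. Among 36844 transcripts ordered by their group mean, Chil3 moved from place 275 to place 5, Chil1 from 125 to 19 and Chil4 from 23061 to 124. In long PBS lungs the means of Chil3, 491, and Chil1, 459.8, were close. The libraries behind them were not, at 149 to 823 for Chil3 and 371 to 556 for Chil1. In long OVA lungs Chil3 held place 10, Chil1 place 20 and Chil4 place 1876.

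Within each library the balance between the genes moved too. The ratios below are of the FPKM as deposited, whereas log2 differences and tests use FPKM + 0.5. The FPKM ratio of Chil3 to Chil1 was 0.461, 0.498 and 0.453 in short PBS and 2.90, 3.12, 2.59 and 3.07 in short OVA. The log2 ratio rose by 2.63, with no overlap (exact permutation test, two-sided, p = 0.0571, the smallest that 3 against 4 libraries allow; 0.0935 adjusted over 18 ratio tests). In long OVA the ratio was 1.87, 1.80, 1.76 and 1.75, a narrow range, and below all short OVA libraries (-0.69 on the log2 scale; exact permutation p = 0.0286, the smallest that 4 against 4 allow; adjusted p = 0.0857). Long PBS libraries spanned 0.373 to 1.69. With groups of this size none of the 18 ratio tests could reach an adjusted p under 0.05, and the 6 on Chit1 to Chil1 follow Chil1 because Chit1 is near 0.

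The ratio of Chil4 to Chil3 in short OVA was 0.122, 0.0173, 0.134 and 0.0928, against 0.00206, 4.58e-04 and 2.14e-04 in short PBS (log2 difference 4.41 with 0.5 added, which shrinks it because Chil4 is so low in PBS; exact permutation p = 0.0571). In long OVA it was 0.0184, 0.00196, 0.0260 and 0.0251, and library b lay within the range of the long PBS libraries (0.00198, 0.00342 and 0.00189). With 0.5 added library b lay below all 3 of them, and the log2 difference between long OVA and PBS was 1.73 (exact permutation p = 0.229). Among the long PBS libraries the ratio thus stayed within a narrow band while Chil3 itself spread over 5.52-fold. Whether reads of Chil3 add to these low Chil4 values was not tested. Over all 22 libraries the ratio ran from 0 to 0.134.

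**Figure D3:**
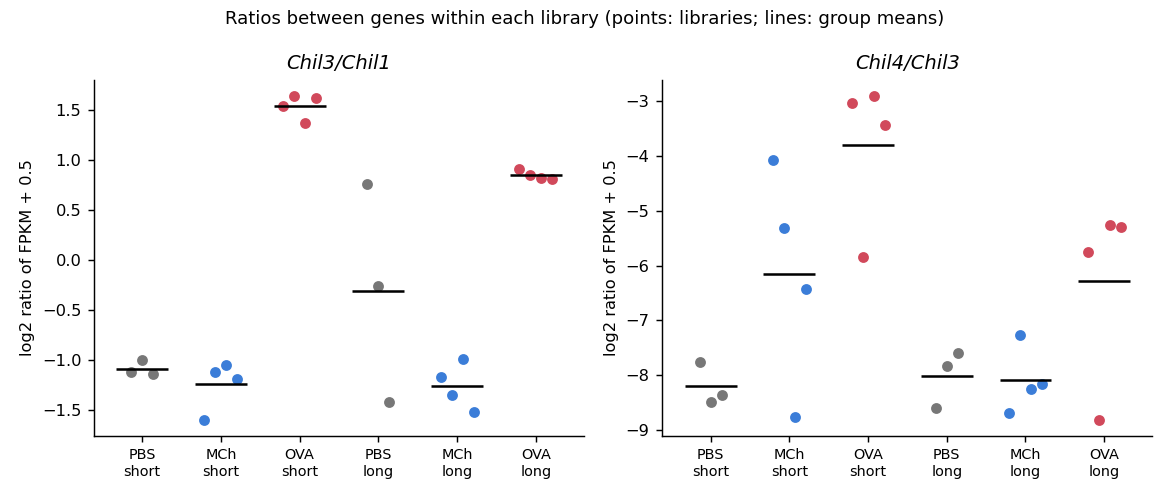
Log2 ratios of Chil3 to Chil1 and of Chil4 to Chil3 (FPKM + 0.5) in each of 22 libraries, with lines at group means. The Chil3 to Chil1 ratio of all 8 OVA libraries is above 0, as is that of 1 long PBS library; short OVA library 2 and long OVA library b are the lowest of their groups for Chil4 to Chil3.

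In the OVA groups, the libraries with little Chil4 were not those with little Chil3. In both PBS groups, by contrast, library 3 was the lowest for Chil4 and for Chil3. Short OVA library 2 had the lowest Chil4 (119.8 FPKM) and the highest Chil3 (6914) and Chil1 (2219) of its group. Long OVA library b had 3.74 FPKM of Chil4 against 42.2 to 46.7 in its group mates, yet its Chil3, at 1906, was the second highest of the 4. The same 2 libraries were lowest of their groups in goblet cell markers and in club cell markers, the other secretory cells of the airway. Agr2, a disulfide isomerase needed for mucin folding, stood at 6.21 FPKM in short OVA library 2 against 23.1, 23.2 and 17.4 in its group mates, and at 0.790 in long OVA library b against 6.85, 5.24 and 6.48. Clca1 stood at 219.8 against 634 to 1081 and at 48.9 against 565 to 615. The sum of 9 goblet markers was 316 FPKM in short OVA library 2, against 918 to 1537, and 130.4 in long OVA library b, against 1057 to 1113. Clca1 and Agr2 are among these 9, and each marker sum given here follows its most abundant genes most. The sum of 4 club cell markers was 34530 FPKM in short OVA library 2, against 38966 to 46849, and 31657 in long OVA library b, against 41706 to 48202. What part either cell type has in the Chil4 values was not tested. Alveolar macrophage markers did not share this pattern: those libraries held 756 and 701 FPKM, the highest and the second highest of their groups. Nor did alveolar type 2 markers, at 21006 FPKM in short OVA library 2, against 19406 to 20845, and 16305 in long OVA library b, against 14012 to 15766.

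Over the 22 libraries, after removing the 6 group means, deviations of Chil4 went with those of Agr2 (Pearson r = 0.92), the membrane protein Fer1l6 (0.92) and the actin-severing protein Scin (0.89). These were the 3 genes most like it of 12769 compared, and Agr2 is also on the goblet cell list. Leaving out long OVA library b and short MCh library 3, the 2 farthest in Chil4, r was 0.85, 0.90 and 0.84. The group means were not recomputed for this, so the left-out libraries still shift the deviations of their group mates. The r between Chil4 and Chil3 deviations was 0.05, and between Chil4 and Chil1 0.05. By the log2 values themselves, which carry the group differences, the genes most like Chil4 were the lectin Itln1 (0.97), Scin (0.96) and Agr2 (0.96). All these are descriptions over libraries that share depth and group structure.

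Chil3 had other companions. By log2 values it was most like the secreted ribonuclease gene Rnase2a (r = 0.99), the chemokine Ccl8 (0.97) and the lectin Cd209e (0.97). By deviations from group means it was most like Nabp1, a single-strand DNA binding protein (0.85), Chia1 (0.79) and Rnase2a (0.76). Without long PBS libraries 3 and 1, the 2 farthest in Chil3, these were 0.68, 0.67 and 0.15, so the likeness to Rnase2a within groups rests on those libraries. Chil1 was most like Ms4a7, a macrophage membrane protein, Pdia6, a protein disulfide isomerase, and the cathepsin Ctsz by log2 values (0.98 each). By deviations it was most like the pantetheinase Vnn1 (0.84), the arginase Arg2 (0.84) and the peptidase Scpep1 (0.83), and without long MCh library c and long OVA library a these were 0.76, 0.81 and 0.76. As for Chil4, the group means behind these Chil3 and Chil1 values still held the left-out libraries. The r between Chil1 and Chil3 deviations was 0.59.

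**Figure D4:**
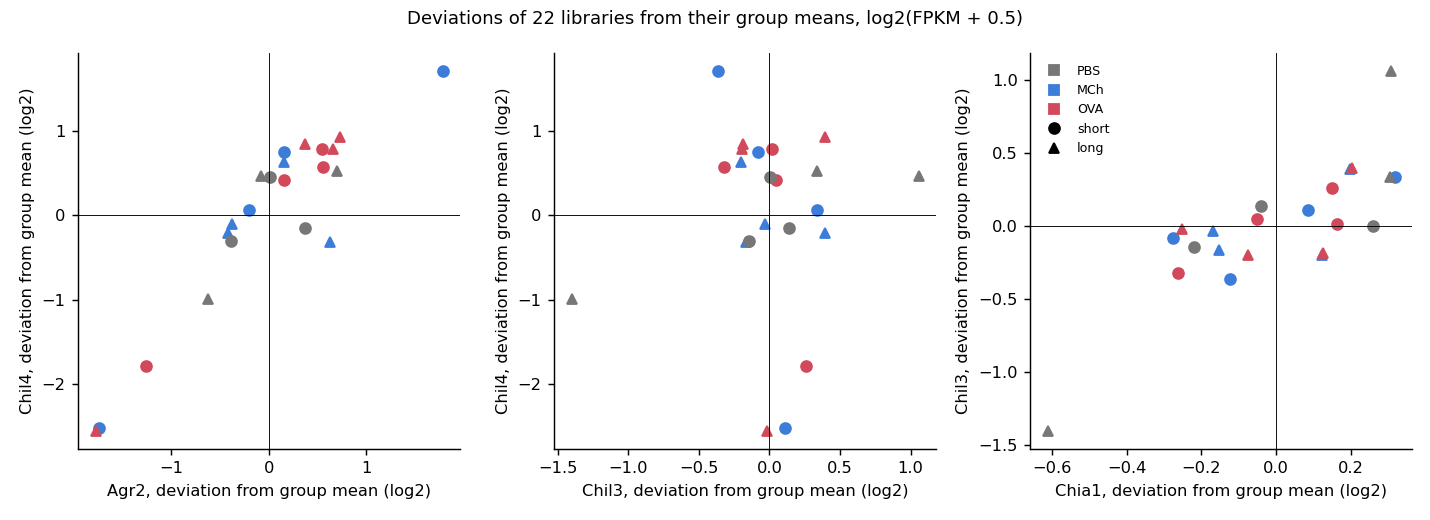
Deviation of each of 22 libraries from its group mean on the log2(FPKM + 0.5) scale, for Chil4 against Agr2, Chil4 against Chil3 and Chil3 against Chia1. Chil4 lies along Agr2 (r = 0.92), shows no such line with Chil3 (r = 0.05), and Chil3 goes with Chia1 (r = 0.79).

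Of the 6 other genes of the family, 5 were tested and 3 rose after short OVA, with 2 not called and a median of 0.85, against 24.2% of all genes called and a median of -0.06 over all genes. Chia1, the chitinase that lies 15435 bases from Chil3, rose by 4.21 ± 0.20, from 22.8 ± 3.98 to 431 ± 57.8 FPKM (adjusted p = 6.12e-11). Its libraries did not overlap, at 27.2, 21.96 and 19.4 in PBS and 479, 475, 357 and 413 in OVA. Of the 2 true chitinases, Chia1 was thus well above 0 and Chit1 was not. In the transcript table Chia1 averaged 2094 FPKM in short OVA, place 13 of 36844; its values in the gene table are 0.206 of those in the transcript table in all libraries, so its gene-table level is not set beside those of the members. The lysosomal family member Chid1 rose by 1.02 ± 0.16 (adjusted p = 1.85e-04), from 15.7 ± 0.242 to 32.4 ± 2.003 FPKM. Chil5, also on chromosome 3, rose by 0.85 ± 0.21 (adjusted p = 0.00632) but stayed under 0.752 FPKM. Ctbs (chitobiase), which breaks down glycoproteins in lysosomes, stood at -0.28 ± 0.21, and the oviductal glycoprotein Ovgp1 at -0.49 ± 0.42, neither called. Chil6 was at 0 in 12 of 22 libraries and was not tested.

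Of these 5, Chia1 alone was called after long OVA (1.18% of all genes called), at 1.61 ± 0.20 (adjusted p = 1.56e-04), with 102, 74.4, 96.8 and 84.3 FPKM in OVA and 35.6, 35.5 and 18.6 in PBS. Its OVA effect was smaller than in the short protocol, with an interaction of -2.60 ± 0.28 (adjusted p = 2.75e-05). Chid1 stood at 0.27 ± 0.16 and Chil5 at 0.54 ± 0.21 in the long protocol without passing. Chil5 passed there with array weights (0.00657) and without long OVA library b (0.0260), and the interaction of Chid1 (-0.74 ± 0.23, adjusted p = 0.123) passed under 4 alternatives.

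Along chromosome 3 the called genes stood together. From Chia1 over Chil3 to Chil4 the short OVA differences were 4.21, 4.88 and 9.29. Pifo, a cilium gene between Ovgp1 and Chil5, stood at 0.25 ± 0.35 and was not called. At that far end of the cluster 1 of 3 tested genes was called, Chil5, against 24.2% of all tested genes in this comparison. Around Chil1 on chromosome 1, Mybph, a myosin-binding protein of muscle, rose by 0.51 ± 0.16 (adjusted p = 0.0285) at 0.0558 FPKM in PBS and 0.299 in OVA, while Btg2, Fmod and Adora1 were not called. Pifo, Mybph, Btg2, Fmod and Adora1 are named for their position.

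**Figure D5:**
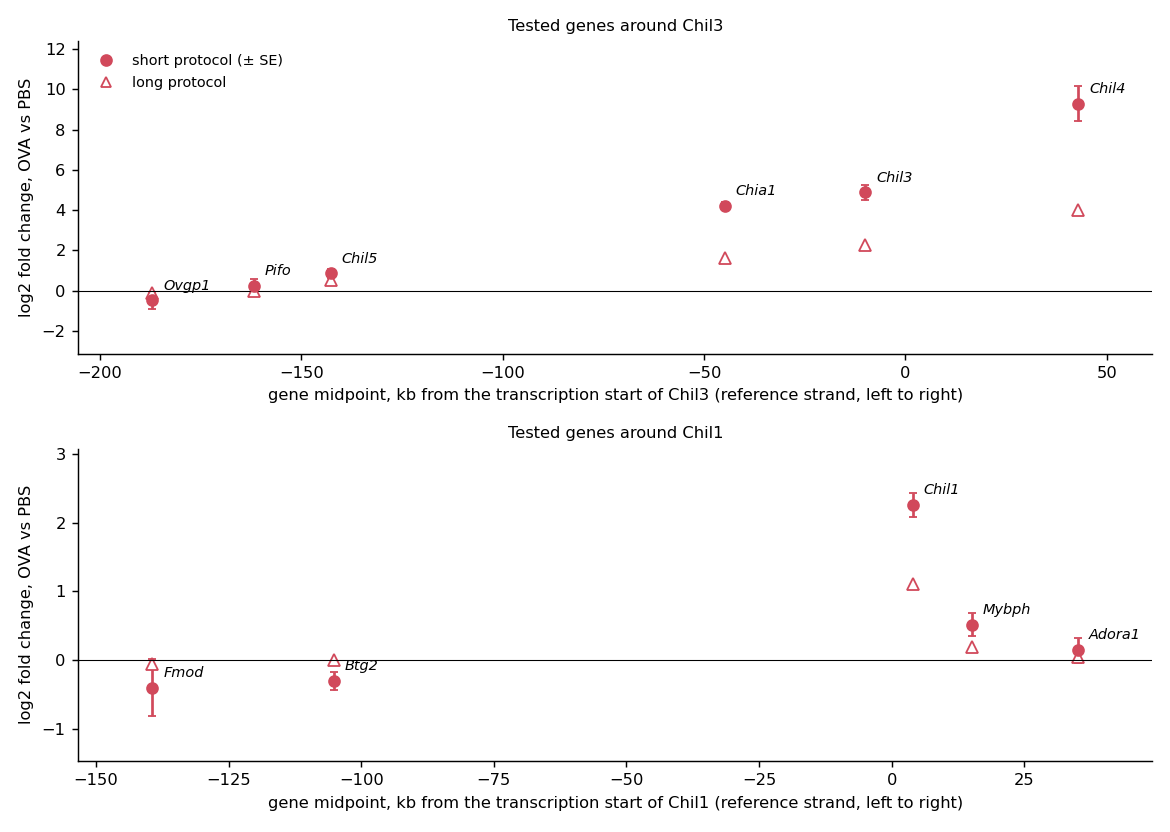
Log2 fold change of OVA over PBS for the tested genes around Chil3 on chromosome 3 and around Chil1 on chromosome 1, by distance of the gene's midpoint from the start of Chil3 or Chil1 in kilobases; points with SE are the short and triangles the long protocol. Chia1, Chil3 and Chil4 stand above 1.6 in both protocols, and Chil1 above its tested neighbours.

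Other genes of the pathway were taken from lists. Among proteins that bind or break down chitin, the beta-glucan receptor Clec7a rose after short OVA by 2.48 ± 0.33 and the lysosomal enzyme Hexa by 0.53 ± 0.18, while the receptor Tlr2 stood at 0.43 ± 0.21 and was not called. After long OVA Clec7a was called at 1.48 ± 0.33. Among 6 proposed binding partners of the Chil1 protein, 3 rose after short OVA (24.2% of all genes called). Il13ra2, a receptor chain for IL-13, rose by 2.52 ± 0.18, from 0 or near it to 2.66 ± 1.13 FPKM, the galectin Lgals3 by 1.93 ± 0.22 and Tmem219 by 0.62 ± 0.21. Cd44, Ptgdr2 and Sdc1 were not called. After long OVA 1 of the 6 was called (1.18% of all genes), Il13ra2, at 0.83 ± 0.18, and its OVA effect was smaller there (interaction -1.69 ± 0.26, adjusted p = 0.00113).

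Of 11 tested genes of the IL-4 and IL-13 axis, 6 rose and 1 fell after short OVA, against 24.2% of all genes called. Il13, listed at 0 in all 3 short PBS libraries, held 8.07 ± 2.81 FPKM in short OVA (n = 4; adjusted p = 4.14e-10 from limma). Il4 rose by 2.96 ± 0.24, the alarmin Il33 by 2.71 ± 0.17 and the receptor chain Il4ra by 0.54 ± 0.12. Named after their values were seen, Il2rg and Il13ra1, further receptor chains, rose by 0.67 ± 0.16 and 0.43 ± 0.11, and Stat6, the transcription factor, was the gene that fell, at -0.38 ± 0.11. After long OVA 1 of them was called (1.18% of all genes), Il33, at 1.80 ± 0.17, and Il13 stood at 0.385 ± 0.225 FPKM. The OVA effect was smaller in the long protocol for Il13 (adjusted p = 6.22e-06) and for Il4 (-2.63 ± 0.34). Genes of alternative macrophage activation rose in 12 of 12 cases after short OVA (24.2% of all genes called; median of the list 3.44) and in 1 of 12 after long OVA (1.18% of all genes), Arg1, by 3.64 ± 0.40 (median of the list 0.66). Of these 12, 9 had a smaller OVA effect in the long protocol, among them Retnla (-6.91 ± 0.94), where the interaction was called for 1.88% of all genes. No member of any list was called for MCh against PBS in either protocol.

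Markers of cell types moved beside the members; over all genes tested, 1950 rose and 1840 fell after short OVA (24.2% called), and 1.18% were called after long OVA. Of 10 monocyte and recruited macrophage markers 7 rose after short OVA (median 2.28), among them C1qb by 2.86 ± 0.22 and Trem2 by 3.21 ± 0.29. Their sum was 1091 to 1663 FPKM in short OVA against 573 to 731 in short PBS, and 760.3 to 999 in long OVA. Of 10 alveolar macrophage markers 3 rose and 2 fell (median 0.09), Mrc1 being on this list and on that of alternative activation, with sums of 554 to 756 FPKM in short OVA, 534 to 764 in long OVA and 339 to 403 in short PBS. All 9 goblet cell markers rose after short OVA (median 3.60), Itln1 by 4.76 ± 0.71 and Agr2 by 4.16 ± 0.67, and their sum was 316 to 1537 FPKM against 10.0045 to 74.4. After long OVA 0 of 9 were called in limma (median 1.59); their sum was 130.4 to 1113 in OVA and 154.6 to 226 in PBS. Muc5ac and Spdef, which define goblet cells, were at 0 in long MCh libraries a and c, both among the 3 libraries with most genes at 0. Of 5 eosinophil markers 4 rose after short OVA, Epx by 2.21 ± 0.20, with sums of 11.3 to 23.6 FPKM against 6.28 to 7.64. Of 11 neutrophil markers 1 rose, Retnlg by 4.04 ± 0.39, and the sums overlapped, at 168 to 345 FPKM for short OVA lungs against 112 to 290.0 for PBS. Of 4 club cell markers 2 fell, Cyp2f2 by 1.28 ± 0.15 and Scgb3a2 by 0.94 ± 0.29. Of 10 alveolar type 2 markers 3 rose and 4 fell. What part each cell type has in the levels of Chil1, Chil3 and Chil4 was not tested.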

How the data were processed

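RNA from 22 mouse lungs in 6 groups was analysed from the gene and transcript tables that the authors deposited, both in FPKM. The submitters' processing notes name Trim Galore, STAR and DESeq2 and the mouse build mm10. Not given in the sources used here were versions, the FPKM program and the annotation behind it. Kits were RNeasy with DNase I and TruSeq Stranded Total RNA, per the labels' protocols.

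Genes that reached 0.1 FPKM in fewer than 3 libraries were left out (15682 of 20938 stayed). Values as log2(FPKM + 0.5), which understates changes of low genes, were fitted with limma 3.58.1 in R 4.3.3: 1 coefficient per group, 11 contrasts, eBayes with an intensity trend, two-sided, Benjamini-Hochberg within each contrast. Titles call the libraries of a group biological replicates. The limma p-values rest on 1 estimate per gene of the spread between libraries, shared by all groups. A group with a wider spread has no estimate of its own. Ratios were tested by exact permutation. The steps were tested on simulated data. Alternatives were other pseudocounts, filters, scalings, array weights, a transcript fit, a replicate block and left-out libraries. Transcripts (GENCODE vM21) were aligned with Biopython 1.88. Positions and promoters are those of RefSeq, matched by symbol for 4 of 4 members; protein sequences were not used here.

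The rule for the members uses no measured value, but members, lists, tests and alternatives were chosen with earlier results of these data known. Named genes are the members, their family, up to 4 genes per list with the smallest p in short OVA against PBS, and the 3 most like each member. 1 listed gene of chitin breakdown and recognition is not reported here, so that list is given without counts.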

Additional observations from a re-analysis of the deposited data

Results flagged for a closer look

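Chil4 had 1 library far from the other 3 in both OVA groups: the gap to its nearest neighbour was 0.859 of the group's range for short OVA library 2, the lowest, and 0.958 for long OVA library b, the lowest. Chil5 had short OVA library 1 far above the others, at 0.890 of the range. These are 3 of 32 groups of 4 libraries screened, where chance alone flags about 1 in 20. The OVA effect differed between the protocols, by the interaction in limma, for Chil1 (-1.15), Chil3 (-2.62), Chil4 (-5.30) and Chia1 (-2.60), each smaller in the long protocol.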

How the results depend on the processing

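Chil1, Chil3 and Chil4 were called higher in short OVA than in short PBS under all 21 alternatives run (different pseudocounts, filters, scalings, weights, fits and left-out libraries), and so were the 3 members against MCh in both protocols. In OVA against PBS long, Chil1 and Chil3 kept their calls under 20 of 20; Chil4 lost its call with a pseudocount of 0.1 (4.48) and with no filter (3.99), and ranged from 3.50 to 4.84 as libraries were left out. The difference of the OVA effects was lost for Chil4 with a pseudocount of 0.1 (-6.27) and with no filter (-5.30) and ranged from -5.89 to -4.45 as libraries were left out; for Chil1 it was lost with quantile normalization (-0.78) and ranged from -1.29 to -0.99996 as libraries were left out. The number of members called there ranged from 1 to 3. Values near 0 that turned were Chil3 in MCh against PBS short with quantile normalization (-0.018) and with the length trend removed (-0.023), and from -0.060 to 0.173 as libraries were left out; Ovgp1 in OVA against PBS long, from -0.221 to 0.027 as libraries were left out; and the log2 ratio of Chil4 to Chil3 between PBS groups (0.199), -0.186 with 1 added and from -0.0069 to 0.495 as libraries were left out. In each of these cases the cause was not tested. Fitted on the 26492 tested transcripts, Chil4 in OVA against PBS long stood at 4.01 (adjusted p = 0.0587) and was not called.

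Replicate numbers gave no consistent sign of pairing: in the 4 groups with numbers, the 19 pairs of same-numbered libraries correlated at -0.27 to 0.36 in their deviations. Pairs with different numbers were not compared, and the long OVA and MCh groups could not be checked. With a replicate block the short OVA differences were 2.21 for Chil1, 4.82 for Chil3 and 9.21 for Chil4, all called, and Chil3 in MCh against PBS short was -0.013. Depth limits Chit1 and the control level of Chil4, which rest on a few fragments.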
